A study of Mus musculus with 4 samples.

Results

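Fatty acid synthesis was followed here through 10 genes in cultured fibro-adipogenic progenitors (FAPs) of mouse skeletal muscle that lack or carry the microRNA miR-206. The genes were taken by name from the deposited table of counts and TPM, and all 10 of them (Srebf1, Acly, Acss2, Me1, Acaca, Fasn, Elovl5, Elovl6, Scd1 and Scd2) were found among its 28649 genes. FAPs are the Sca1-positive mesenchymal cells from which fat and scar tissue arise in injured muscle. The libraries were 2 from FAPs of miR-206 knockout (KO) mice and 2 from FAPs of wild-type C57Bl/6 mice, and no source used here gives the age or sex of the mice, the strain background of the KO or whether replicates came from separate animals. Any strain difference and the missing miR-206 cannot be told apart. Both genotypes were expanded to about 90% confluence in DMEM with 20% fetal bovine serum, 10% horse serum and 5 ng/ml FGF, and RNA was taken after 48 hours in DMEM with 10% horse serum.

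Cells build fatty acids from citrate that has left the mitochondrion. ATP citrate lyase (Acly) splits it to acetyl-CoA, acetyl-CoA synthetase (Acss2) makes the same unit from acetate, and malic enzyme (Me1) supplies NADPH. Acetyl-CoA carboxylase (Acaca) makes malonyl-CoA, fatty acid synthase (Fasn) assembles palmitate, the elongases Elovl6 and Elovl5 extend saturated and polyunsaturated chains, and the stearoyl-CoA desaturases Scd1 and Scd2 introduce the first double bond. SREBP-1, the product of Srebf1, is the transcription factor best known for driving these enzymes, and in fat and liver the pathway is strongly active.

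Each library held between 30550235 and 44561117 estimated counts. Levels are given in TPM, which is scaled for depth and transcript length. The 14 FAP markers summed to 14975 to 18636 TPM. Of these, 1 was called between genotypes by edgeR, where 0.427% of all tested genes were. This was Clec3b, a tetranectin gene (edgeR adjusted p = 0.0027). It had 38.5 and 41.0 TPM in KO against 102 and 102 TPM in wild type. With all 4 libraries it was also called by DESeq2 (adjusted p = 6.3e-25) and limma-voom (adjusted p = 0.0154). Limma on log2(TPM + 1) called it too (adjusted p = 0.0406). With either KO library left out Clec3b no longer passed (edgeR adjusted p = 0.0603 when replicate 1 was dropped and 0.0509 when replicate 2 was). Fold changes in the FAP list had both signs. Of the 14, 8 were positive and 6 negative, with a median of 0.19 log2. At an unadjusted edgeR p under 0.05, 4 were higher and 4 lower in KO (28.6% each), where 7.16% and 7.18% of all tested genes were. DESeq2 called 4 higher, among them Pdgfra (log2 fold change 0.38), and 4 lower, among them Ly6a (-0.61). Its calls made up 57.1% of the list, where it called 4.84% of all genes. The FAP marker genes Pdgfra and Ly6a, which encodes Sca1, had at least 359.9 and 1379 TPM in every library, whereas Ptprc, the pan-leukocyte marker, had at most 0.369 TPM and the endothelial marker Pecam1 at most 3.96 TPM, and their lists of 6 genes each summed to at most 9.25 and 16.2 TPM. The microRNA was not analysed here, and the genotypes rest on the labels. The libraries of a genotype differed from each other in other cell programmes. The 15 muscle-lineage markers included skeletal actin (Acta1) and embryonic myosin (Myh3). They summed to 2051 and 235 TPM in KO replicates 1 and 2 and to 3889 and 2250 TPM in wild-type replicates 1 and 2. Of these markers, Pax7 and Myf5 were at or near 0 in all 4 libraries. Myog, by contrast, had 88.6 and 7.66 TPM in KO and 113 and 72.9 TPM in wild type. Myod1 had 24.3 and 1.74 TPM in KO and 32.3 and 19.7 TPM in wild type. The 16 adipocyte markers summed to 893 and 627 TPM in KO and to 1958 and 1350 TPM in wild type, and the leptin gene Lep was at 0 in 3 libraries and at 0.0146 TPM in KO replicate 1. KO replicate 2 thus stood apart by its low muscle level and wild-type replicate 1 by its high adipocyte level.

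Since the libraries differ by genotype in miR-206, its mature sequence and its seed matches in the 10 genes are shown. The mature strand, from chr1:20679055-20679076 of GRCm38 on the plus strand and credited to RefSeq, has its seed, bases 2 to 8, in capitals below. The longest annotated 3' UTR of each gene (GENCODE M21, GRCm38) was searched on the transcript strand for ACATTCC, the match to the whole seed, and for CATTCCA, a match to its first bases followed by A. In all, 3 of the 10 genes held such a match, namely Fasn, Scd2 and Elovl6, the last with 2 matches, where 19.0% of the 13548 tested genes whose 3' UTR is annotated did. A match is a description of the letters and not a shown site of binding. Capitals mark the match in each stretch, written as DNA.
miR-206-3p: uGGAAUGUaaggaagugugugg
Elovl6, base 2836 of a 3' UTR of 5005 bases: gctgtcagtgaACATTCCgggcaagcaag
Elovl6, base 2914: atttctcgctgCATTCCAatcccagtgtg
Fasn, base 358 of a 3' UTR of 2008 bases: caggggtgactCATTCCAgaaccccctaa
Scd2, base 1848 of a 3' UTR of 3664 bases: tctttgtcagtCATTCCAaaacaaatggt

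All 10 genes were well above the low-count limit, and their levels per transcript length spanned about an order of magnitude. In TPM, averaged over the 4 libraries, Scd1 (296 TPM) and Scd2 (276 TPM) stood highest, followed by Acly (171 TPM), Srebf1 (86.5 TPM), Fasn (84.7 TPM), Me1 (58.2 TPM), Elovl5 (42.1 TPM), Acaca (28.1 TPM), Elovl6 (24.0 TPM) and Acss2 (22.0 TPM). The ranges over libraries of Scd1 and Scd2 overlapped, as did those of Srebf1 and Fasn, Fasn and Me1, Me1 and Elovl5, and Elovl6 and Acss2. Other neighbours in this order did not overlap. Both desaturases together made up 48.1% and 49.4% of the summed TPM of the 10 genes in KO and 59.1% and 50.9% in wild type. That sum was 855 and 1007 TPM in KO and 1348 and 1147 TPM in wild type, and without Scd1 it was 657 and 798 TPM in KO and 857 and 861 TPM in wild type.

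**Figure D1:**
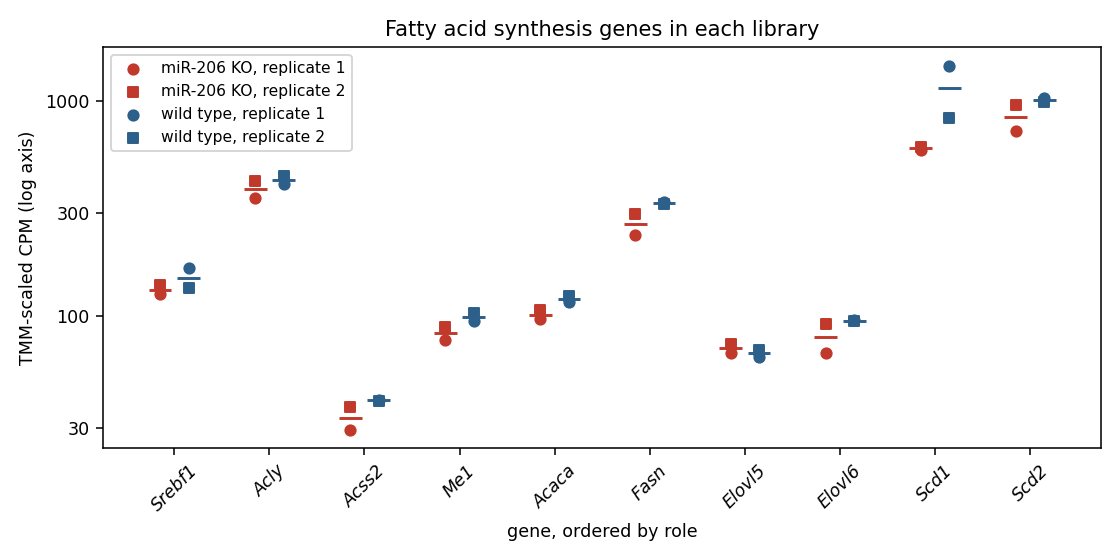
TMM-scaled CPM (log axis) of the 10 genes in each library, with KO to the left of wild type, 1 point per library and a bar at the mean of 2. Both KO points lie below both wild-type points for 7 genes, and the distance between the points of a genotype is often as large as the distance between genotypes.

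Counts, printed as CPM (scaled to the TMM-adjusted library total), were compared between genotypes with edgeR's quasi-likelihood test across all 14507 genes that passed its low-count filter, with Benjamini-Hochberg adjustment over all of them. None of the 10 genes passed the threshold, an adjusted p of 0.05, where 0.427% of all tested genes did (62 of 14507), with 0.241% higher and 0.186% lower in KO. DESeq2 and limma-voom also called 0 of the 10, against 4.84% and 0.0965% of the genes they tested. Without adjustment, 4 of these 10 genes were under 0.05 by edgeR, where 14.3% of all tested genes were, namely Acaca, Me1, Fasn and Scd1, each with a negative fold change, where 7.18% of all tested genes were lower in KO by that rule and 7.16% higher. The log2 fold change of KO over wild type was negative for 9 of 10 genes, against 50.4% of all tested genes, and Elovl5 was the exception. The median of the 10 was -0.26 log2, beside -0.00 over all tested genes. It depended on which KO library was kept, at -0.10 without KO replicate 1 and -0.40 without KO replicate 2. Both KO libraries lay below both wild-type libraries for 7 of 10 genes, where 24.4% of all tested genes did, and they lay above for 0 of 10, where 23.8% did. The groups overlapped for Srebf1, Acly and Elovl5. In bulk RNA, fewer cells of a type and less RNA per cell cannot be told apart in any of these values.

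**Figure D2:**
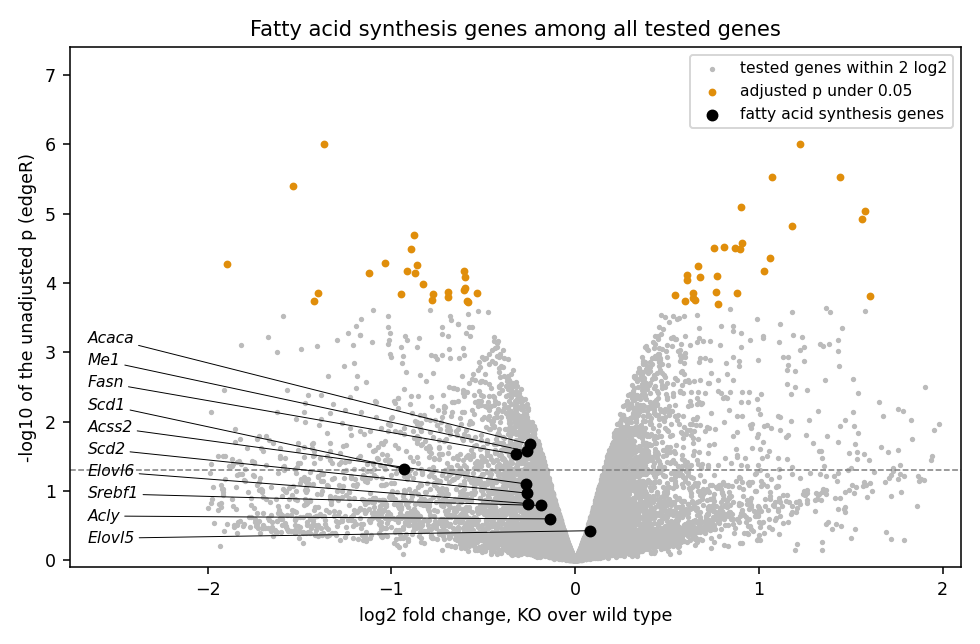
Each tested gene with a log2 fold change of at most 2 in size (grey), by its log2 fold change of KO over wild type and the -log10 of its unadjusted edgeR p, with genes of adjusted p under 0.05 in orange and the 10 fatty acid synthesis genes in black. The dashed line is an unadjusted p of 0.05, which Acaca, Me1, Fasn and Scd1 pass, and 9 of the 10 genes lie left of 0.

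Srebf1, the regulator, lies on chromosome 11 from 60199089 to 60222581 on the minus strand. It had 126 and 139 CPM in KO, against 166 and 135 CPM in wild type. In CPM the higher KO value exceeded the lower wild-type value, so the groups overlapped. In TPM Srebf1 had 85.6 and 73.9 in KO against 100 and 86.1 in wild type, so both KO libraries lay below both wild-type libraries, the nearest by little, and the order of the KO libraries was the reverse of that in CPM. The log2 fold change was -0.18 (SE 0.11, edgeR adjusted p = 0.534). Leaving out wild-type replicate 1 gave -0.03, and leaving out replicate 2 of that genotype gave -0.32. The genes around it were read likewise. Insig1, which holds SREBP in the endoplasmic reticulum and is itself a target of SREBP, had 68.5 and 81.3 TPM in KO against 94.5 and 96.8 TPM in wild type, a log2 fold change of -0.35 (SE 0.09, edgeR adjusted p = 0.149), and DESeq2 called it lower (DESeq2 adjusted p = 0.0306). The gene of the cholesterol-regulating SREBP-2, Srebf2, had a log2 fold change of -0.05. It was 0.05 without KO replicate 1. Nr1h3, which encodes the oxysterol receptor LXR alpha, had 9.50 and 9.10 TPM in KO against 13.9 and 11.9 TPM in wild type, and it did not pass the threshold (edgeR adjusted p = 0.321). Mlxipl, the gene of the glucose-responsive lipogenic factor ChREBP, was scarce, with 1.29 and 0.739 TPM in KO against 3.18 and 1.60 TPM in wild type. Its log2 fold change was -1.47 (SE 0.36, edgeR adjusted p = 0.149), which DESeq2 called (DESeq2 adjusted p = 0.0306).

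The genes that supply acetyl-CoA and NADPH had KO values that lay below wild type or overlapped it. Acly, on chromosome 11 from 100476353 to 100528000, had 351 and 424 CPM in KO against 408 and 444 CPM in wild type, and the groups overlapped. Its log2 fold change was -0.14 (SE 0.11, edgeR adjusted p = 0.625). Acss2, on chromosome 2 from 155517948 to 155585724, had 29.5 and 37.8 CPM in KO against 40.4 and 40.3 CPM in wild type. The wild-type libraries were nearly equal and both KO libraries lay below them, at a log2 fold change of -0.27 (SE 0.13, edgeR adjusted p = 0.414). Per transcript length Acly exceeded Acss2 by 8.57 and 8.14 times in KO and by 7.33 and 7.34 times in wild type. Me1, on chromosome 9 from 86581371 to 86695953, had 77.3 and 88.2 CPM in KO against 94.7 and 103 CPM in wild type. The groups were separate, with a log2 fold change of -0.26 (SE 0.09, unadjusted p = 0.0268 and adjusted p = 0.279 by edgeR).

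The chain-building enzymes Acaca and Fasn both had KO libraries below wild type that did not reach the threshold. Acaca, on chromosome 11 from 84129672 to 84401651, had 96.0 and 106 CPM in KO against 116 and 124 CPM in wild type. Its standard error was the smallest of the 10 genes, and it had a log2 fold change of -0.24 (SE 0.08, unadjusted p = 0.0212 and adjusted p = 0.254 by edgeR). Fasn, on chromosome 11 from 120805846 to 120824547 on the minus strand, had 237 and 297 CPM in KO against 336 and 332 CPM in wild type. The wild-type libraries were nearly equal, and KO replicate 1 lay much further below them than KO replicate 2. The log2 fold change was -0.32 (SE 0.11, unadjusted p = 0.0294 and adjusted p = 0.287 by edgeR). It was -0.49 without KO replicate 2 and -0.17 without KO replicate 1.

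Fasn is the usual reporter of lipogenic control, and its start region is shown with that of Elovl5, the gene whose fold change had the other sign. Each sequence runs from 250 bases before to 50 bases after the annotated start, from RefSeq's GRCm38.p6, at chr11:120824498-120824797 on the minus strand for Fasn and chr9:77917115-77917414 on the plus strand for Elovl5. Capitals mark CCAAT, the motif of NF-Y, and CACGTG, an E-box, on either strand. RefSeq's table held 11 start regions for 8 of the 10 genes, with none for Scd1 and Scd2. Srebf1 and Me1 had more than 1 region each, so the shares below are of regions and not of genes. The only Acaca region, from base 84195188 of chromosome 11, lies inside the gene. The median GC content was 62.7% in the 11 regions and 52.7% in all, and the shares were not adjusted for it. CCAAT or its reverse complement occurred in 7 of the 11 and in 37.4% of 32851 start regions of all genes. CACGTG occurred in 1 of 11, that of Elovl5, and in 7.15% of all. GGGCGG, a GC box, occurred in 5 of 11 and in 35.7% of all. TCACNCC, a short form of the sterol regulatory element, occurred in 0 of 11 and in 15.6% of all, which says only that these letters are not in these windows. In Fasn 2 of the 3 CCAAT matches overlap each other.
Fasn: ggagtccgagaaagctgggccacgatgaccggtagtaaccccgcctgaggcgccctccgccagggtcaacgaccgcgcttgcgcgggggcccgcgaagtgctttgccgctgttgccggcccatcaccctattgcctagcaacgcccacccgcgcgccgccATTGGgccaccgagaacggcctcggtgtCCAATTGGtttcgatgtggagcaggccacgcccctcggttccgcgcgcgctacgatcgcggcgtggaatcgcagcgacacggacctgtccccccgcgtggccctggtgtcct
Elovl5: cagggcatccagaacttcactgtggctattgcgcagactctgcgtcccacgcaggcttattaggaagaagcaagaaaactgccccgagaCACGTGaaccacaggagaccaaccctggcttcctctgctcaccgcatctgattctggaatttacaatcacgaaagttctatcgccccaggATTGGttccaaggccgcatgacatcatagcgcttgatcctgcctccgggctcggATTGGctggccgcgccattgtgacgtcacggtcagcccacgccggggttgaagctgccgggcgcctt

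The elongase genes had fold changes of opposite sign, and neither passed the threshold. Elovl5, on chromosome 9 from 77917364 to 77984519, had 67.1 and 74.2 CPM in KO against 64.1 and 69.5 CPM in wild type. The values interleaved, and the log2 fold change was 0.08 (SE 0.08, edgeR adjusted p = 0.720). Elovl6, on chromosome 3 from 129532355 to 129638495, had 67.4 and 91.4 CPM in KO against 95.6 and 94.1 CPM in wild type. KO replicate 2 lay close under the wild-type libraries and KO replicate 1 well below them. The log2 fold change was -0.26 (SE 0.15, edgeR adjusted p = 0.522), and it was -0.05 without KO replicate 1 and -0.49 without KO replicate 2. The ratio of Elovl5 to Elovl6 in TPM was 2.19 and 1.79 in KO and 1.49 and 1.69 in wild type. The difference between the 2 elongases was not tested.

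Scd1 had the most negative fold change of the 10 genes and also the widest gap between wild-type libraries. It lies on chromosome 19 from 44394455 to 44407879 and had 590.0 and 609 CPM in KO against 1454 and 834 CPM in wild type. The KO libraries were nearly equal and below both wild-type libraries, and wild-type replicate 1 was far above replicate 2. The mean was 599.7 ± 13.7 CPM in KO and 1144 ± 438 CPM in wild type (SD, n = 2 each), and the fit put KO at 52.4% of wild type. The log2 fold change was -0.93 (SE 0.31, unadjusted p = 0.0479 and adjusted p = 0.342 by edgeR). It was -0.48 when wild-type replicate 1 was left out. Leaving out replicate 2 of wild type gave -1.28, and Scd1 was then called (edgeR adjusted p = 0.0337). That fit assumes that the lone wild-type library varies as the KO libraries do.

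Scd2, the neighbouring desaturase gene on chromosome 19 from 44293674 to 44306864, had 721 and 949 CPM in KO against 1022 and 984 CPM in wild type. Both KO libraries lay below both wild-type libraries, with KO replicate 2 close under them, at a log2 fold change of -0.26 (SE 0.14, edgeR adjusted p = 0.463). In TPM the ratio of Scd1 to Scd2 was 0.925 and 0.727 in KO and 1.61 and 0.959 in wild type, so Scd1 exceeded Scd2 in wild-type replicate 1 alone. Reads of such paralogs can be divided wrongly. The coding sequences of Scd1 and Scd2 were 90.7% identical. Of 4802 stretches of 31 bases in the Scd1 transcript, 252 (5.25%) also occurred in that of Scd2. That share counts exact matches and is not an identity over the whole transcripts. How reads were divided between the 2 genes was not tested. The other family members, Scd3 and Scd4, had at most 0.171 and 0.382 TPM. With the counts of Scd1 to Scd4 summed, the log2 fold change was -0.58 (SE 0.18, edgeR adjusted p = 0.248).

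All 10 genes had more CPM in KO replicate 2 than in KO replicate 1, where 50.0% of all tested genes did. In TPM 9 of the 10 did, Srebf1 being the exception, where 57.5% of all tested genes did. The median log2 ratio of these KO libraries was 0.23 over the 10 genes and ran from 0.05 for Scd1 to 0.44 for Elovl6, beside 0.00 over all tested genes. This gap was about as large as the median difference between genotypes. Fold changes therefore differed with the KO library kept. Without KO replicate 1 the log2 fold change was -0.0068 for Acly, -0.10 for Acss2, -0.17 for Me1, -0.08 for Scd2 and 0.15 for Elovl5. Without KO replicate 2 it was -0.28 for Acly, -0.45 for Acss2, -0.35 for Me1, -0.47 for Scd2 and 0.0088 for Elovl5. Wild-type replicate 1 was above replicate 2 for 6 of 10 genes, where 50.7% of all tested genes were, with a median log2 ratio of 0.01 and gaps of 0.80 for Scd1 and 0.30 for Srebf1.

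**Figure D3:**
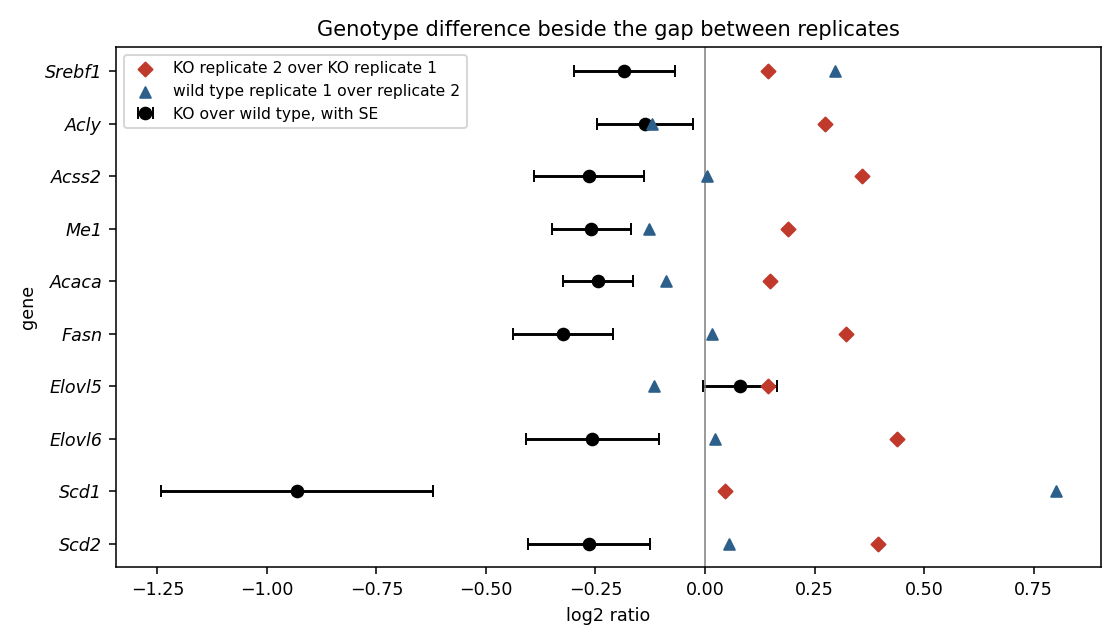
Log2 fold change of KO over wild type with its standard error (black), beside the log2 ratio of KO replicate 2 over 1 (red diamonds) and of wild-type replicate 1 over 2 (blue triangles), for each of the 10 genes. The red diamonds all lie right of 0, and the blue triangle of Scd1 lies at 0.80.

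Marker lists of other cells did not follow all 10 genes in the same way. For all 15 adipocyte markers tested the fold change was negative, where 50.4% of all tested genes were. Both KO libraries lay below both wild-type libraries for all 15, where 24.4% of all tested genes did. Their median was -1.81 log2. At an unadjusted edgeR p under 0.05, 8 of the 15 (53.3%) were lower in KO, where 7.18% of all tested genes were. DESeq2 called 9 of the 15 lower (60.0%), where it called 4.84% of all genes in either direction. Adipoq, the adiponectin gene, had 18.5 and 9.32 TPM in KO against 134 and 52.5 TPM in wild type, and Pparg, the master regulator of fat cell formation, had 7.93 and 7.47 TPM in KO against 26.7 and 17.2 TPM in wild type. DESeq2 called both (adjusted p = 0.0112 for Adipoq and 1.0e-06 for Pparg), and edgeR neither (adjusted p = 0.360 and 0.0745). Cidec, a lipid droplet gene with 0.795 and 0.338 TPM in KO against 5.29 and 2.50 TPM in wild type, passed by edgeR (adjusted p = 0.0468) and DESeq2. Its call was lost with limma-voom (adjusted p = 0.167), without robust estimation (adjusted p = 0.0960 by edgeR), with limma on either TPM scale (adjusted p = 0.254 in each) and in each of the 4 edgeR fits that left out a library (adjusted p from 0.0581 to 0.193). The adipocyte list was higher in wild-type replicate 1 than in replicate 2, by a median of 0.95 log2, as Scd1 was by 0.80, whereas the median of all 10 genes was 0.01. Between the KO libraries the adipocyte list was likewise higher in replicate 1, with a median log2 ratio of replicate 2 to 1 of -0.40. The muscle-lineage markers were too, at -3.33, whereas all 10 fatty acid synthesis genes were higher in replicate 2. These orders are in CPM. Between genotypes, 13 of 13 muscle-lineage markers tested were negative, where 50.4% of all tested genes were. Both KO libraries lay below both wild-type libraries for 9 of the 13 (69.2%), where 24.4% of all tested genes did. Of the 13, 0 were called by edgeR, where 0.427% of all tested genes were. At an unadjusted edgeR p under 0.05 there were 0, against 14.3%. Whether either cell type contributes to the fold changes was not tested.

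**Figure D4:**
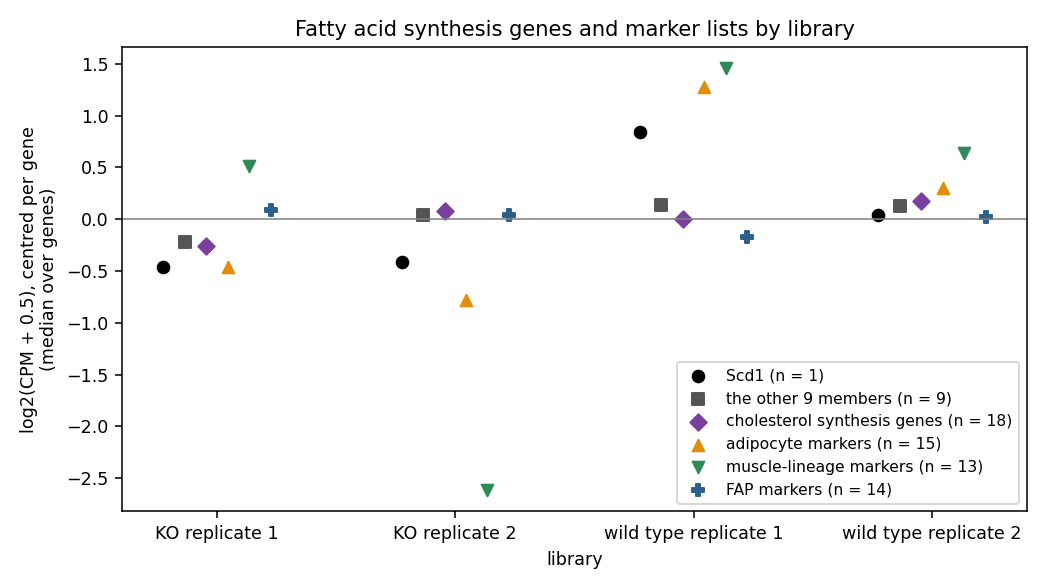
Median level in each library, as log2(CPM + 0.5) centred on each gene's mean over the 4 libraries, of Scd1, the other 9 genes and the tested genes of 4 lists. In wild-type replicate 1 Scd1 stands at 0.84 and the adipocyte markers at 1.28, and the other 9 genes run from -0.22 in KO replicate 1 to 0.14 in wild-type replicate 1.

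Cholesterol synthesis, which is driven mainly by SREBP-2, gave a comparison within sterol and lipid control. The fold change was negative for 17 of 18 genes tested (94.4%), where 50.4% of all tested genes were, and its median was -0.16 log2. By edgeR 0 of the 18 passed the threshold, where 0.427% of all tested genes did. At an unadjusted edgeR p under 0.05 there was 1 (5.56%), where 14.3% of all tested genes were. Both KO libraries lay below both wild-type libraries for 5 of the 18 (27.8%), near the 24.4% of all tested genes. The list was higher in KO replicate 2 than in KO replicate 1 by a median of 0.35 log2, and lower in wild-type replicate 1 than in replicate 2, at -0.19. Fdps, the farnesyl diphosphate synthase gene, had 176 and 242 TPM in KO against 225 and 262 TPM in wild type, and the sterol oxidase gene Msmo1 had 96.3 and 145 TPM in KO against 118 and 157 TPM in wild type, so that in both genes the groups overlapped. Without KO replicate 1 Msmo1 was at 0.01 log2.

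The surroundings of the fatty acid synthesis pathway were read from 67 further genes in 6 lists, of which 64 were tested. The lists also hold genes that restrain the pathway, such as Insig1, or serve other lipids, such as Degs1. The pooled shares below are therefore not a measure of synthesis. By edgeR 0 of the 64 passed the threshold, where 0.427% of all tested genes did. Limma-voom called 0, where it called 0.0965% of all tested genes. At an unadjusted edgeR p under 0.05, 12 were lower in KO (18.8%) and 3 higher (4.69%), where 7.18% of all tested genes were lower and 7.16% higher. Both KO libraries lay below both wild-type libraries for 25 of the 64 (39.1%), where 24.4% of all tested genes did. The fold change was negative for 44 of the 64 (68.8%), where 50.4% of all tested genes were, and the median was -0.10 log2. Most single lists are too short to be read against that share. Of the citrate and acetyl-CoA genes, 8 of 9 were negative. Idh1, the cytosolic isocitrate dehydrogenase gene, had 161 and 178 TPM in KO against 179 and 185 TPM in wild type, and the citrate carrier gene Slc25a1 had 142 and 183 TPM in KO against 147 and 165 TPM in wild type. Of the other NADPH genes, 4 of 6 were negative. Pgd, of the pentose phosphate pathway, had 146 and 165 TPM in KO against 168 and 169 TPM in wild type. Of the partners of carboxylase and synthase 6 of 8 were negative, and of the other elongation and desaturation genes 9 of 16 were (56.2%), near the share of all genes. Tecr, the last enzyme of the elongation cycle, had 246 and 296 TPM in KO against 340 and 299 TPM in wild type, whereas Elovl1, an elongase of saturated very long chains, had 133 and 147 TPM in KO against 121 and 133 TPM in wild type. Of the acyl-CoA synthetase genes 4 of 5 were negative. Of the 20 regulators 13 were negative, with a median of -0.03 log2.

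DESeq2 called 5 of the 63 of these genes that had an adjusted p (7.94%), where it called 4.84% of all genes, and they are named because it called them and not by the rule for named genes. They were Insig1 and Mlxipl, given above, Degs1, Acsl1 and Acsl4. Acsl1, the acyl-CoA synthetase of fat cells and muscle, had 7.30 and 6.72 TPM in KO against 36.1 and 16.9 TPM in wild type, a log2 fold change of -1.82 (SE 0.50, edgeR adjusted p = 0.319). Acsl4, which prefers arachidonic acid, had 28.2 and 34.0 TPM in KO against 22.8 and 24.8 TPM in wild type, a log2 fold change of 0.40 (SE 0.09, edgeR adjusted p = 0.118). Degs1, the sphingolipid desaturase gene, had 116 and 129 TPM in KO against 146 and 142 TPM in wild type, a log2 fold change of -0.30 (SE 0.07, edgeR adjusted p = 0.136).

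Counts and TPM gave different fold changes for Me1 and Acaca. In the authors' deposited table the log2 difference of mean TPM, KO minus wild type, was -0.46 for Me1 and -0.08 for Acaca, against -0.26 and -0.24 in the fit to counts. The mean transcript length that the deposited counts and TPM imply, as counts over TPM scaled between libraries, differed by 0.20 log2 for Me1, with a longer mean in KO, and by -0.17 log2 for Acaca, with a shorter mean in KO. Relative to the gene's own mean it was 1.11 and 1.04 in KO and 0.925 and 0.939 in wild type for Me1. For Acaca it was 0.901 and 0.986 in KO and 1.03 and 1.09 in wild type. A difference of at least 0.1 log2 in size was found for these 2 of the 10 genes and for 20.4% of 14360 tested genes with a value. For Srebf1 the KO libraries themselves differed, at 0.884 and 1.17, against 1.00 and 0.966 in wild type. For Scd1, Scd2 and Elovl6 the implied lengths of the genotypes differed by under 0.002 log2. The transcripts behind these lengths were not analysed here.

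Finally, the profiles of single genes over the 4 libraries were compared by Euclidean distance on log2(TPM + 1), centred on each gene's mean. Among the 10 genes Scd2 and Elovl6 were the closest pair, at a distance of 0.032, and Elovl5 and Scd1 the most distant, at 1.14. The mean profile of the 10 genes was -0.26 and -0.04 in KO and 0.18 and 0.12 in wild type, in log2 units. Of 9905 other genes with a mean of at least 5 TPM, the nearest to it were Fbxw7, which encodes a ubiquitin ligase subunit, at 0.020, followed by Pcdhgb6, Dkk3, Sgpl1 and S100a10, at 0.028 to 0.039. With 4 libraries, such likeness rests on few values and is given as a description.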

How the data were processed

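RNA was sequenced from 4 cultures of sorted FAPs, 2 per genotype, with a stranded mRNA kit per the labels' protocols. Per the submitters' processing notes, FastQC, kallisto and the mm10 build were used, and no source used here gives versions, annotation or how transcripts were summed to genes. The authors deposited estimated counts, which were not normalized, and TPM, which they scaled by depth and length. They also deposited a sheet of log2 differences of mean TPM, used only where named. Estimated counts, rounded, entered edgeR 4.0.16 under R 4.3.3 (robust quasi-likelihood F-test, TMM scaling, filterByExpr, Benjamini-Hochberg adjustment over 14507 genes, two-sided, threshold 0.05). Limma 3.58.1 and DESeq2 1.42.0 served as alternatives. All 10 genes passed the filter. The standard error is the fold change over the square root of F. On simulated counts for this comparison with 14299 genes tested, the fit found 5 of 60 genes simulated with a 0.5 log2 difference, and 26 of 45, 35 of 40 and 41 of 52 at 1, 2 and 3 log2. Among its 131 calls 24 were false, more than the threshold allows. A 0.5 log2 difference was thus seldom called among these genes, which were drawn at random from all that passed the filter. Genes with the counts and spread of the 10 were not simulated as a set, so their lack of calls does not show equal levels. Replicates differed by more than sampling noise (chi-square per gene 38.3 in KO and 28.7 in wild type, where 1 is noise alone). The p-values rest on the spread between these 4 libraries alone, moderated across genes. No source used here says whether that spread is between animals, and it may be technical. In the authors' sheet, 27 gene names had become dates and were restored by transcript. Genome positions are from GENCODE M21 (GRCm38, mm10), counted from 1. The genes and lists were chosen with earlier results of these data known. Genes named beside the 10 were taken from listed markers and regulators, list members past the threshold, the 2 of highest mean TPM in each list, and the 5 genes of nearest profile; where a further gene is named, the text says so.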

Additional observations from a re-analysis of the deposited data

How the results depend on the processing

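The count of genes called over the whole table was 62, and 62 with RLE scaling, 133 with library size alone, 491 with no low-count filter, 666 with DESeq2, 14 with limma-voom, 6 and 5 with limma on log2(TPM + 1) and log2(TPM + 0.1), 11 without robust estimation and between 7 and 77 with a library left out. With a replicate block it was 265. The labels give both genotypes replicates 1 and 2, but nothing says that a number marks a shared batch, and the gaps between replicates correlated by 0.187 over genes, with 2 pairs. The block changed the call of none of the 10 fatty acid synthesis genes, and their median was -0.27 log2 with it. Of the 10 genes, 0 were called under any alternative that kept all libraries and between 0 and 1 with a library left out, where Scd1 was called without wild-type replicate 2. The sign of each of the 10 fold changes was kept in all 13 alternatives. Their median ran from -0.40 to -0.10 log2 with a library left out and from -0.30 to -0.26 otherwise. Both KO libraries lay below both wild-type libraries for 7 genes, where 24.4% of all tested genes did, and for 8 by TPM, where 23.4% did. With a library left out, every KO library kept lay below every wild-type library kept for between 7 and 9 genes. Of all genes, 35.0% to 38.5% did. Among the other genes picked by the rule for named genes, fold changes of 9 changed sign in some alternative, and the cause was not tested. Signs of the remaining tested genes were not followed across the alternatives. Mid1ip1 was at 0.098 and 0.10 with the TPM settings. With a library left out, Mid1ip1 ran from -0.22 to 0.0055, Mbtps1 from -0.052 to 0.040, Msmo1 from -0.39 to 0.015, Srebf2 from -0.16 to 0.048, Slc25a1 from -0.080 to 0.21, Usf2 from -0.16 to 0.027, Scd4 from -1.04 to 0.17, Cd68 from -0.036 to 0.40 and Pecam1 from -0.24 to 1.94. Such fits leave 1 library in a genotype, which is assumed to vary like the other group.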
